A study of Mus musculus with 9 samples.

Results

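The genes described here are the transcription factor gene Trp53, which encodes p53, and 9 genes long known as its targets or as stress-response relatives of those targets: Mdm2, Ccng1, Gadd45a, Gadd45b, Gadd45g, Sesn1, Sesn2, Bbc3 and Bax. They were taken by gene symbol from a table of 48820 genes, and all 10 were found. RNA-seq had been carried out on 9 hearts of untreated wild-type C57BL/6J mice, all labelled male, with 3 hearts each at embryonic day 18.5 (E18.5d), postnatal day 1 (P1d) and postnatal day 7 (P7d). The hearts were labelled as biological replicates, no allele or agent was added, and each value is the level in the RNA of a heart, expressed as FPKM, which counts fragments per kilobase of transcript and scales them to the mapped fragments of the library. In such RNA from a mixture of cells, fewer cells of a type and less RNA per cell cannot be told apart. All 10 genes passed the filter on low values, an average level of 1 FPKM or more across all samples, as did 13618 genes in all.

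p53 is held at a low level by the ubiquitin ligase Mdm2, whose gene p53 itself activates, so that the pair forms a feedback loop. When DNA is damaged or cells are stressed, p53 is stabilised and raises genes that stop the cell cycle, slow growth or start apoptosis. The 3 Gadd45 proteins are small acidic proteins that bind the kinase Map3k4, Pcna and the Cdk1-cyclin B1 complex. Gadd45a is the classical p53 target among them, while Gadd45b and Gadd45g are known mostly as early response genes. Sestrins restrain the growth kinase mTORC1 through the GATOR complexes, and Sesn1 is a target of both p53 and the FOXO factors. In the heart, the days around birth are when cardiomyocytes leave the cell cycle.

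Promoter sequences are shown first, for the members whose RNA differed between stages. Each window runs from 250 bases before to 50 bases after a RefSeq transcription start on GRCm38.p6. It is written 5′ to 3′ on the strand of the gene. Capitals mark only the motifs named above each group of windows, and other matches stay in lower case. All 10 members had a window, 13 windows in all, since Sesn1 had 2 and Bbc3 had 3. Both strands were searched for the p53 half-site consensus and for the FOXO core TGTTTAC, the E-box CACGTG, the TATA box TATAAA, the CCAAT box (CCAAT itself), the GC box GGGCGG, the cAMP response element TGACGTCA and the AP-1 element TGANTCA. The FOXO core overlapped no other motif in the sequences shown.

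The capitals in the Trp53 and Ccng1 windows, at chr11:69580109-69580408 (+) and chr11:40755237-40755536 (-), mark the p53 half-site at -75 and at -185 from the start.
Trp53: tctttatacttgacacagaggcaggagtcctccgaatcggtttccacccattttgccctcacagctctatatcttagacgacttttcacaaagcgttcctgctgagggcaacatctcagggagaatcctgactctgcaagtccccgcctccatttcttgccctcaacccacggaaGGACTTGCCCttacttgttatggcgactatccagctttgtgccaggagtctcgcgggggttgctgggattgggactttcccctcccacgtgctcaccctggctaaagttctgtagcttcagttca
Ccng1: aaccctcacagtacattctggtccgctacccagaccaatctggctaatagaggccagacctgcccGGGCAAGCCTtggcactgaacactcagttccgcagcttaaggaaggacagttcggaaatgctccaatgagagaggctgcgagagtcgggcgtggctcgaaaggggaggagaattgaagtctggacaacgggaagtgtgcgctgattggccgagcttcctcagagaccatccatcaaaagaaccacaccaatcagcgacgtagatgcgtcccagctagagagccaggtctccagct

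In the 3 Gadd45 windows, at chr6:67037358-67037657 (-), chr10:80929841-80930140 (+) and chr13:51846425-51846724 (+), the capitals mark the CCAAT box, the TATA box, the E-box and the p53 half-site, to set the 3 paralogues side by side.
Gadd45a: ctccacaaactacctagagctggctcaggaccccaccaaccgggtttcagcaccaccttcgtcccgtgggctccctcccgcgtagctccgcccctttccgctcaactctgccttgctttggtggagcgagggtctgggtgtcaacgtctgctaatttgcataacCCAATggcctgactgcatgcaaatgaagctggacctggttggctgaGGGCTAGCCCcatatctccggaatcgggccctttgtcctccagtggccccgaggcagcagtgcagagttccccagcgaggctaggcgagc
Gadd45b: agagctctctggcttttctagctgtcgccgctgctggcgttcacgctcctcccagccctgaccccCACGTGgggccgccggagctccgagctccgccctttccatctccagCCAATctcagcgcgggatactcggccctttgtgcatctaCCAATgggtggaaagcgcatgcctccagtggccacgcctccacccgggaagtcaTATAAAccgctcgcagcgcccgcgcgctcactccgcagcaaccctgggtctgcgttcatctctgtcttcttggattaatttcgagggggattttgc
Gadd45g: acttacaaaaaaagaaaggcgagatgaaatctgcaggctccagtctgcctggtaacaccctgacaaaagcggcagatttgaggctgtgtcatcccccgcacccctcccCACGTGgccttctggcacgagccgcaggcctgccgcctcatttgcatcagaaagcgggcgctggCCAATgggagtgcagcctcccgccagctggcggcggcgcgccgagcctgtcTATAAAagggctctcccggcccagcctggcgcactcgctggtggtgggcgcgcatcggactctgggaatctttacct

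The 2 Sesn1 windows lie at the starts of different transcripts, at chr10:41810324-41810623 (+) and chr10:41887189-41887488 (+). Capitals mark TGTTTAC in the first and the p53 half-site in the other.
Sesn1, first start: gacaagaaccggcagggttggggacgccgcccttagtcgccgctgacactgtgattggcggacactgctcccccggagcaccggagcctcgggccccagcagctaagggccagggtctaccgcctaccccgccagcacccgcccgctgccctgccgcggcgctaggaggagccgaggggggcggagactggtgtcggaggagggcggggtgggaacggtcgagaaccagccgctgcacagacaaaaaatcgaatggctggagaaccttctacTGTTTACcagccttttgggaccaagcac
Sesn1, other start: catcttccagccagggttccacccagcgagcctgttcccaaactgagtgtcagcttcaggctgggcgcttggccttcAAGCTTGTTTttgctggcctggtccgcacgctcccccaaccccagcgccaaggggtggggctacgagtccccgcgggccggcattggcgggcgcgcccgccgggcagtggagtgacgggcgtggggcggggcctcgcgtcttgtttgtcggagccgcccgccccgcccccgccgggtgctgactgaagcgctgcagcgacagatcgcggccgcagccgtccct

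The p53 half-site was present once in 6 of the 13 windows, those of Trp53, Mdm2, Ccng1, Gadd45a, Bax and the other start of Sesn1, and in 8.36% of all 32851 RefSeq windows of the mouse. No member window held more than 1 exact match, whereas a full p53 element has a pair of half-sites. Half-sites with a mismatch were not counted, so these counts cannot show whether a window held a full element. In the Ccng1 window the bases directly before the marked half-site differ from the consensus by 1 letter. The 3 Gadd45 windows all held CCAAT, at -86 for Gadd45a, -139 and -100 for Gadd45b and -78 for Gadd45g. They differed in the other letters marked. Gadd45a had the p53 half-site at -40, with neither TATAAA nor CACGTG. Gadd45b had TATAAA at -46 and CACGTG at -185, and Gadd45g had TATAAA at -27 and CACGTG at -142. TATAAA was in 3 of the 13 windows (13.6% of all) and CACGTG in 5 (7.15% of all). The Trp53 window held both, and CACGTG was also in the Bax window and the last of the 3 Bbc3 windows. TGTTTAC was found in 3 of the 13 windows and in 3.65% of all windows. It lay at position 23 from the first Sesn1 start, at -153 in the Mdm2 window and at -167 in the second Bbc3 window. CCAAT was in 10 of the 13 windows (37.4% of all), GGGCGG also in 10 (35.7% of all), while TGACGTCA and TGANTCA were in none (1.79% and 7.81% of all). These matches describe letters, not bound sites.

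Several facts of the whole series bear on the values. The steps between low FPKM values put the depth, in units of 1e6 fragments, at 25.75 to 45.75 a heart, with a median of 31.5. Between 53.3% and 62.3% of each column's FPKM sum came from 5 small structural RNA genes, and protein-coding nuclear genes held 36.5% to 37.3% at E18.5d, 29.6% to 34.5% at P1d and 30.2% to 33.5% at P7d. The median difference over all genes tested was -0.17 on the log2 scale for P7d against E18.5d as deposited and -0.02 after median-of-ratios scaling. The 8 cardiomyocyte markers summed to between 33547 and 42545 FPKM in every heart, so the labelled tissue was borne out. E18.5d hearts 1 and 3 and P7d hearts 2 and 3, although labelled male, had Xist at 58.03 to 97.03 FPKM and 4 Y-linked genes at 0, while the other 5 hearts had Xist at 0.11 FPKM or less. Airway genes, mainly the secretoglobins Scgb3a1 and Scgb3a2, summed to 90.8, 251 and 492 FPKM in E18.5d hearts 1 and 2 and P1d heart 1 and to 3.20 FPKM or less in the other hearts. In that list 3 of 6 genes averaged 1 FPKM or more, and the surfactant gene Sftpc reached only 0.44 FPKM. Where leaving out these 3 hearts changed the call of a member, or moved the count of a list by over 1.5 times, that value is given beside the result, and it comes from a fit with 1 heart left at E18.5d.

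Stage differences were tested with limma on log2(FPKM + 1), in 1 fit of all 9 hearts, and p-values were adjusted over the 13618 genes by the Benjamini-Hochberg method with a threshold of 0.05. For P7d against E18.5d, 12.5% of the genes tested were higher and 36.9% lower, and of the 10 members 1 was higher (Gadd45a) and 2 were lower (Gadd45b and Gadd45g). For P1d against E18.5d, 18.4% were higher and 27.6% lower, beside 2 members higher (Gadd45a and Sesn1) and 2 lower (Trp53 and Ccng1). For P7d against P1d, 15.5% were higher and 28.6% lower, beside 2 members higher (Trp53 and Ccng1) and 2 lower (Gadd45b and Sesn1). The members' shares were thus close to those of all genes, and it is the individual genes that are described here. Median-of-ratios scaling gave 2905 genes higher and 2848 lower for P7d against E18.5d, in place of 1706 and 5025. It gave 3154 higher and 3112 lower for P1d against E18.5d, in place of 2505 and 3755, and 2986 higher and 2700 lower for P7d against P1d, in place of 2112 and 3901.

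**Figure D1:**
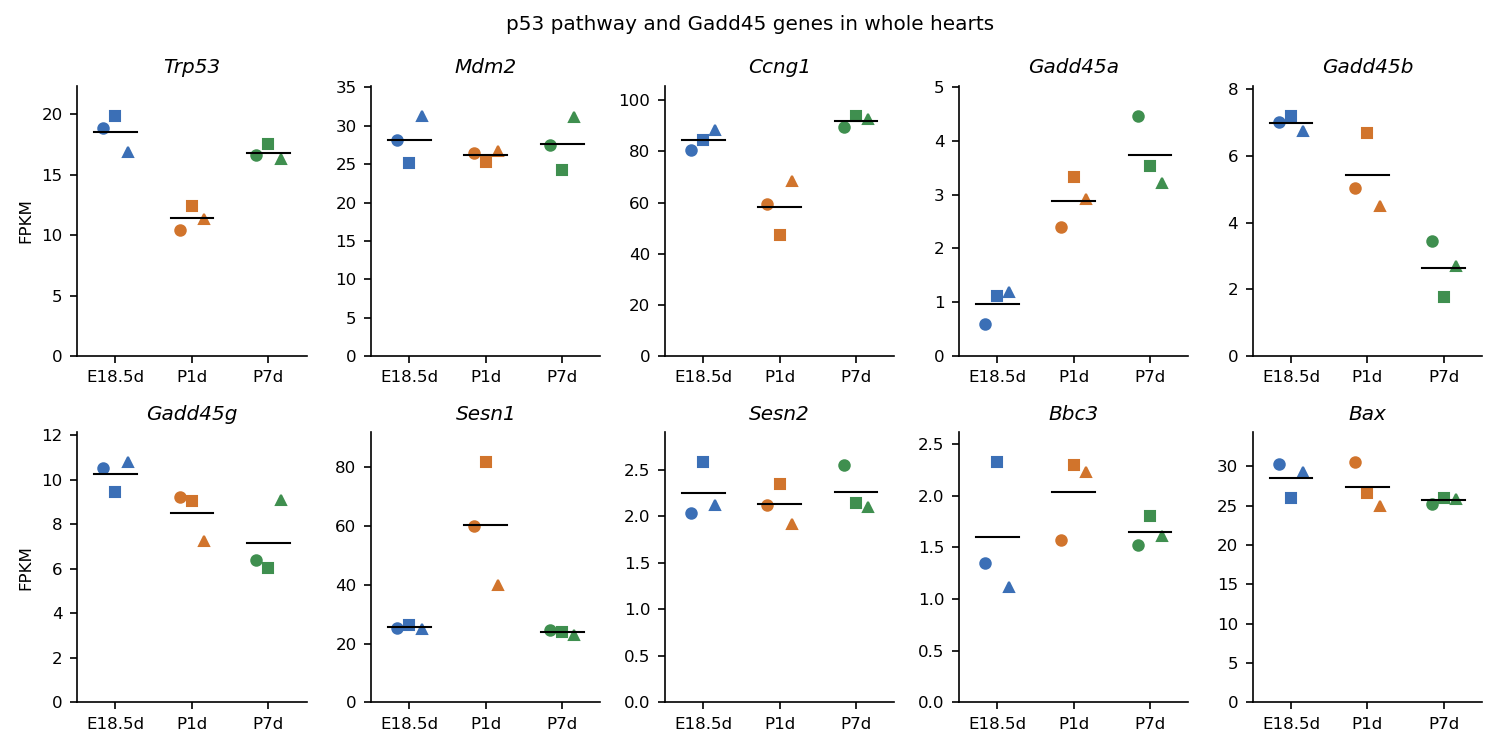
FPKM (vertical axes, each from 0) of the 10 genes in each heart at E18.5d, P1d and P7d, with circles, squares and triangles for hearts 1, 2 and 3 and a black line at the mean of 3 hearts. Trp53 and Ccng1 dipped at P1d, Sesn1 peaked there at 39.73 to 81.52 FPKM, Gadd45a rose from E18.5d and Gadd45b fell by P7d.

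**Figure D2:**
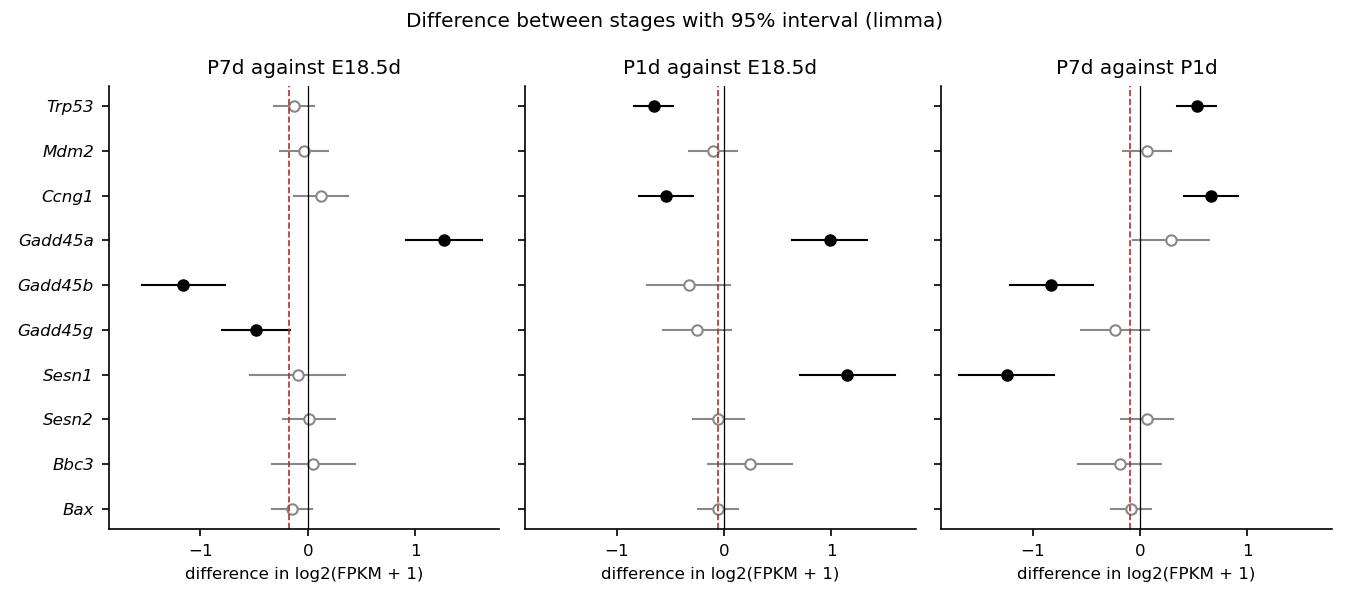
Difference in log2(FPKM + 1) between stages (horizontal axis) with its 95% interval from limma, filled where the adjusted p was under 0.05, and a dashed line at the median of all genes tested. Gadd45a at 1.27 and Gadd45b at -1.16 lie on opposite sides for P7d against E18.5d, and Sesn1 goes from 1.15 to -1.25 between the other comparisons.

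Trp53 (ENSMUSG00000059552, chr11:69580359-69591873, + strand of GRCm38) was lower at P1d than at both other stages. Its level was 18.84, 19.87 and 16.85 FPKM in the E18.5d hearts, 10.46, 12.44 and 11.33 in the P1d hearts and 16.65, 17.52 and 16.34 in the P7d hearts. Every P1d heart lay below every other heart, while E18.5d and P7d overlapped. The P1d mean of 11.4 ± 0.992 FPKM (SD, n = 3) was 0.616 times the E18.5d mean of 18.5 ± 1.54. On the log2 scale the difference was -0.65 (SE 0.08, limma adjusted p = 0.000209), and from P1d to P7d Trp53 rose by 0.53 (SE 0.08, limma adjusted p = 0.000843). P7d and E18.5d were not shown to differ (-0.13, 95% interval -0.31 to 0.05).

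Mdm2 (ENSMUSG00000020184, chr10:117688875-117710758, - strand), the p53 target whose product degrades p53, did not follow Trp53. It was at 28.12, 25.21 and 31.28 FPKM at E18.5d, at 26.51, 25.28 and 26.75 at P1d and at 27.46, 24.18 and 31.16 at P7d. The 3 stages overlapped throughout. Between P1d and E18.5d the log2 difference was -0.10 with a 95% interval of -0.32 to 0.13, between P7d and P1d 0.07 (-0.16 to 0.29) and between P7d and E18.5d -0.03 (-0.26 to 0.19).

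Ccng1 (ENSMUSG00000020326, chr11:40748552-40755311, - strand) encodes cyclin G1, a p53 target that acts on Mdm2 through protein phosphatase 2A. It had the highest mean of the 10 genes at E18.5d and P7d. The hearts had 80.72, 84.29 and 88.56 FPKM at E18.5d, 59.6, 47.28 and 68.5 at P1d and 89.69, 93.88 and 92.58 at P7d. As with Trp53, every P1d heart lay below all other hearts, and here the P7d hearts also lay above the E18.5d hearts. Ccng1 fell by 0.54 on the log2 scale from E18.5d to P1d (SE 0.11, limma adjusted p = 0.00371) and rose by 0.66 from P1d to P7d (SE 0.11, limma adjusted p = 0.00141). The latter put the P7d mean of 92.05 ± 2.14 FPKM (SD, n = 3) at 1.57 times the P1d mean of 58.5 ± 10.7. For P7d against E18.5d the difference of 0.12 did not pass the test (95% interval -0.13 to 0.37), whose spread is pooled with that of the P1d hearts. Nor did it pass in any of the 21 other settings (lowest limma adjusted p 0.0641), among them a fit of the stages compared alone. Without the 3 hearts with airway RNA, which leaves 1 heart at E18.5d, the fall of Ccng1 to P1d was -0.63 with a limma adjusted p of 0.0809.

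Both genes, and Sesn1 in the other direction, also lay off the midpoint of the outer stages at P1d. In that contrast 23.8% of all genes tested were higher and 21.2% lower, beside 1 and 2 of the members. With columns scaled to an equal sum, 1344 genes were higher and 3514 lower, in place of 3246 and 2886. Trp53 was at -0.59 (limma adjusted p = 0.000210), Ccng1 at -0.60 (0.00104) and Sesn1 at 1.20 (0.000552). Gadd45a was at 0.35, which did not pass (0.0612).

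The dip of Trp53 and Ccng1 at P1d ran beside one of dividing-cell genes. A list of 9 proliferation genes summed to 312 to 314 FPKM in the E18.5d hearts, to 70.9 to 89.7 at P1d and to 128 to 161 at P7d, with Top2a, the topoisomerase of dividing cells, at -2.35 and then 1.14 on the log2 scale. Their part in the values of the 2 members was not tested. All 3 P1d hearts belonged to the 5 with low Xist. With Xist above 1 FPKM as a covariate, the members called in each comparison numbered 3, 4 and 4 as before. Fewer of all genes tested were called in that fit. For P1d against E18.5d 1607 were higher and 2893 lower, in place of 2505 and 3755. For P7d against P1d 1467 were higher and 2438 lower, in place of 2112 and 3901. For P7d against E18.5d 1631 were higher and 4820 lower, in place of 1706 and 5025.

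The 3 Gadd45 genes diverged between E18.5d and P7d: Gadd45a rose, Gadd45b fell and Gadd45g fell by less. At E18.5d they ranked Gadd45g, Gadd45b and Gadd45a by FPKM with no overlap between hearts of successive genes.

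Gadd45a (ENSMUSG00000036390, chr6:67035096-67037457, - strand) had the lowest mean of all 10 members at E18.5d. It was at 0.6, 1.12 and 1.19 FPKM at E18.5d, at 2.39, 3.33 and 2.92 at P1d and at 4.46, 3.53 and 3.21 at P7d. All postnatal hearts lay above all E18.5d hearts, and P1d and P7d overlapped. The P7d mean of 3.73 ± 0.649 FPKM (SD, n = 3) was 3.85 times the E18.5d mean of 0.970 ± 0.322. On the log2(FPKM + 1) scale, which understates changes of so low a gene, it rose by 0.98 to P1d (SE 0.16, limma adjusted p = 0.000871) and by 1.27 to P7d (SE 0.16, limma adjusted p = 0.000184). The step from P1d to P7d of 0.29 did not pass the test (95% interval -0.07 to 0.64).

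The E18.5d values of Gadd45a rest on about 22 to 62 fragments a heart at the depth read from the FPKM steps, and the lowest of them has a counting error of 21.1%. The gene shares 337 exonic bases with E230016M11Rik, which lies on the opposite strand. The library kit is not described as strand-specific, so fragments of the shared stretch cannot be told apart. E230016M11Rik was at 0.84, 0.79 and 0.48 FPKM at E18.5d, at 2.22, 1.65 and 2.2 at P1d and at 1.35, 1.22 and 1.33 at P7d. As with Gadd45a, all its postnatal hearts thus lay above all its E18.5d hearts. Its mean went from 0.70 through 2.02 to 1.30 FPKM and was highest at P1d, while the highest Gadd45a mean was at P7d. The part of the overlap in the Gadd45a values was not tested.

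Gadd45b (ENSMUSG00000015312, chr10:80930073-80932204, + strand), an early response gene of TGF-beta and NF-kappaB signalling, fell late. Its values were 7.03, 7.2 and 6.74 FPKM at E18.5d, 5.05, 6.7 and 4.5 at P1d and 3.44, 1.78 and 2.71 at P7d. The stages did not overlap, although P1d heart 2 came close to the lowest E18.5d heart. The fall between E18.5d and P1d was -0.33 and did not pass (95% interval -0.72 to 0.06). From P1d to P7d Gadd45b fell by 0.83 (SE 0.17, limma adjusted p = 0.00407) and from E18.5d to P7d by 1.16 (SE 0.17, limma adjusted p = 0.000526), to 0.378 times the E18.5d mean of 6.99 ± 0.233 FPKM (SD, n = 3).

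Gadd45g (ENSMUSG00000021453, chr13:51846678-51848468, + strand), known for its rapid induction by cytokines, was the most abundant of the family per length at every stage. Its hearts had 10.52, 9.47 and 10.78 FPKM at E18.5d, 9.22, 9.07 and 7.24 at P1d and 6.38, 6.02 and 9.11 at P7d. The P7d hearts lay below the E18.5d hearts, but P7d heart 3 reached the P1d values. The log2 difference between P7d and E18.5d was -0.48 (SE 0.14, limma adjusted p = 0.0187), and the call depended on the scale. With median-of-ratios scaling it was -0.32 with a limma adjusted p of 0.0944, and leaving out E18.5d heart 1 or 3 or P7d heart 1 or 2 also took it past 0.05, as did leaving out the 3 hearts with airway RNA (-0.55, 0.139). The differences of P1d from E18.5d (-0.25, 95% interval -0.57 to 0.07) and of P7d from P1d (-0.23, -0.55 to 0.09) did not pass.

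Ratios within a heart set the paralogues against each other in the same library, although with 1 FPKM added they still depend in part on the scale of the column. The log2 ratio of Gadd45a to Gadd45b (FPKM + 1) was -2.33, -1.95 and -1.82 in the E18.5d hearts, -0.84, -0.83 and -0.49 in the P1d hearts and 0.30, 0.70 and 0.18 in the P7d hearts. Each stage lay apart from the next, and the sign changed by P7d, so that Gadd45a exceeded Gadd45b in all 3 P7d hearts. The difference of 2.43 between P7d and E18.5d had p = 0.1 in a two-sided exact permutation test, the smallest that 3 hearts against 3 allow. Gadd45a to Gadd45g went from -2.53 ± 0.285 (SD, n = 3) through -1.29 ± 0.268 to -0.78 ± 0.433, with p = 0.1 for P7d against E18.5d in the same exact test and p = 0.3 for P7d against P1d. Gadd45b to Gadd45g went from -0.49 ± 0.129 (SD, n = 3) through -0.58 ± 0.185 to -1.17 ± 0.384, with exact permutation p of 0.1 for P7d against E18.5d and 0.2 for P7d against P1d. For the 12 ratio comparisons made, no adjusted value could reach 0.05.

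As a share of the summed FPKM of the 3 genes, Gadd45a made up 5.32% ± 1.75 (SD, n = 3) in the E18.5d hearts, 17.2% ± 2.79 in the P1d hearts and 27.9% ± 5.68 in the P7d hearts. Gadd45b went from 38.4% ± 2.24 through 32.0% ± 2.65 to 19.3% ± 4.33. Gadd45g held 56.3% ± 2.64, 50.7% ± 4.10 and 52.8% ± 7.97. The sum itself was 18.2 ± 0.464, 16.8 ± 2.22 and 13.5 ± 1.96 FPKM.

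**Figure D3:**
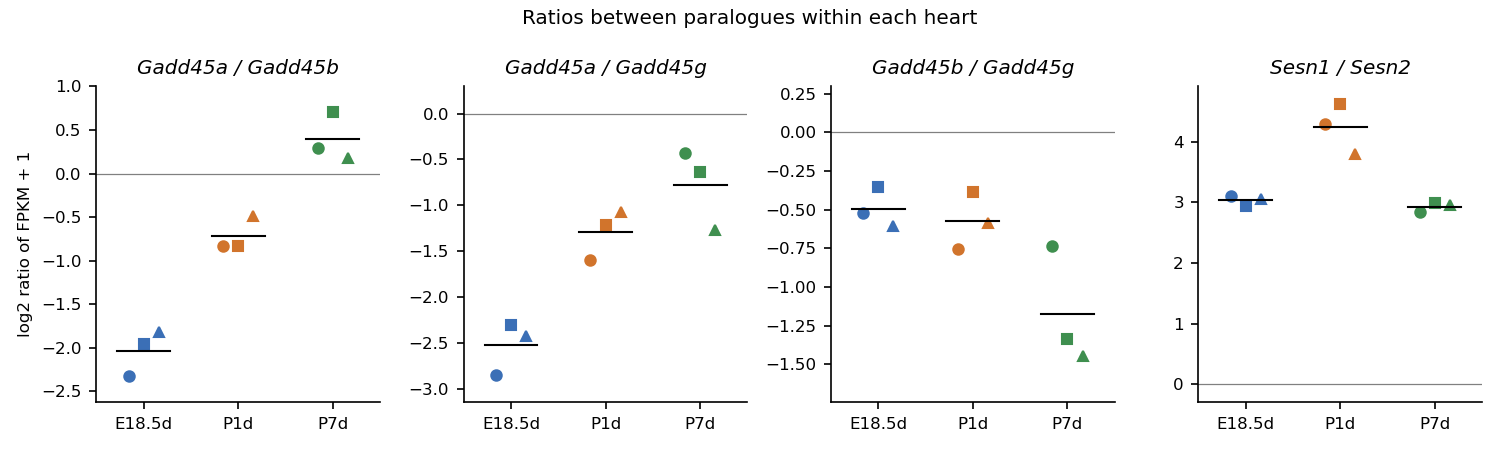
Log2 ratio of FPKM + 1 between paralogues within each heart (vertical axis, grey line at 0) at the 3 stages, with circles, squares and triangles for hearts 1, 2 and 3 and a black line at the mean. Gadd45a to Gadd45b climbs from -2.03 to 0.40 without overlap between stages, while Sesn1 to Sesn2 is high only at P1d among the 3 stages, at 4.24.

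Sesn1 (ENSMUSG00000038332, chr10:41809935-41908424, + strand) was raised at P1d alone of the 3 stages. Its values were 25.2, 26.37 and 25.11 FPKM at E18.5d, 59.99, 81.52 and 39.73 at P1d and 24.48, 24.08 and 23.05 at P7d. The E18.5d and P7d hearts lay close together, with every E18.5d heart above every P7d heart, and the P1d hearts were all higher and spread widely. The P1d mean of 60.4 ± 20.9 FPKM (SD, n = 3) was 2.36 times the E18.5d mean of 25.6 ± 0.703. Sesn1 rose by 1.15 on the log2 scale to P1d (SE 0.20, limma adjusted p = 0.00136) and fell by 1.25 from P1d to P7d (SE 0.20, limma adjusted p = 0.00100). P7d against E18.5d gave -0.09 (95% interval -0.54 to 0.35). Without the 3 hearts with airway RNA the rise to P1d was still 1.15, with a limma adjusted p of 0.0805, and the fall to P7d was -1.22 with 0.0231.

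Sesn2 (ENSMUSG00000028893, chr4:132492032-132510501, - strand), the paralogue best known as an ATF4 target, did not show this peak. It was at 2.04, 2.58 and 2.12 FPKM at E18.5d, at 2.12, 2.35 and 1.92 at P1d and at 2.55, 2.14 and 2.1 at P7d, and all stages overlapped. The 95% interval of its log2 difference ran from -0.29 to 0.19 for P1d against E18.5d and from -0.18 to 0.30 for P7d against P1d. The log2 ratio of Sesn1 to Sesn2 was 3.11, 2.93 and 3.06 at E18.5d, 4.29, 4.62 and 3.80 at P1d and 2.84, 3.00 and 2.96 at P7d. The P1d hearts lay above all others, by 1.20 over E18.5d and by 1.31 over P7d on average, each with p = 0.1 in the two-sided exact permutation test.

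Bbc3 and Bax stand for the apoptotic arm of the pathway. Bbc3 (ENSMUSG00000002083, chr7:16308393-16318205, + strand), which encodes the BH3-only protein Puma, had 1.35, 2.32 and 1.12 FPKM at E18.5d, 1.57, 2.3 and 2.23 at P1d and 1.52, 1.8 and 1.61 at P7d. The stages overlapped, and E18.5d heart 2 stood above the other E18.5d hearts. The log2 difference between P1d and E18.5d was 0.24 (95% interval -0.15 to 0.63). Without E18.5d heart 2 it was 0.43 with a limma adjusted p of 0.0435, and without the 3 hearts with airway RNA 0.62 with 0.0401.

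Bax (ENSMUSG00000003873, chr7:45461697-45466898, - strand), the pore-forming effector of the mitochondrial pathway, stayed between 25.01 and 30.49 FPKM in all hearts. It was at 30.28, 25.99 and 29.32 FPKM at E18.5d, at 30.49, 26.63 and 25.01 at P1d and at 25.23, 25.92 and 25.85 at P7d. The stages overlapped in part, no comparison passed, and the 95% interval for P7d against E18.5d was -0.33 to 0.04. Bax shares 192 exonic bases with Gm45808 on the same strand, which had 0.16 to 1.68 FPKM.

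Ordered by mean FPKM, Ccng1 was followed at E18.5d by Bax, Mdm2, Sesn1, Trp53, Gadd45g, Gadd45b, Sesn2, Bbc3 and Gadd45a. Neighbours overlapped between Bax and Mdm2, Mdm2 and Sesn1, Sesn2 and Bbc3, and Bbc3 and Gadd45a. At P1d Sesn1 and Ccng1 stood at the top and overlapped, at 60.4 and 58.5 FPKM, and Gadd45a had moved from place 10 to place 8. At P7d Gadd45a stood at place 7, ahead of Gadd45b, with which it overlapped.

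The wider p53 pathway was followed in lists of related genes, counted over the members that passed the filter. All list counts here stand beside the shares of all genes tested, and no list was tested against these shares. For P7d against E18.5d 12.5% of all genes tested were higher and 36.9% lower. The shares were 18.4% and 27.6% for P1d against E18.5d, and 15.5% and 28.6% for P7d against P1d. Of 14 p53 regulators, 1 was higher and 6 were lower for P7d against E18.5d, 3 and 4 for P1d against E18.5d and 1 and 4 for P7d against P1d. The list's median log2 difference was -0.18, -0.11 and -0.05 in these comparisons, beside -0.17, -0.06 and -0.09 for all genes tested. The checkpoint kinase gene Chek1 fell by 1.61 from E18.5d to P1d and Chek2 fell by 0.93, and Chek2 rose by 0.83 from P1d to P7d. Mdm4, the partner of Mdm2 in holding p53 in check, fell by 0.59 from E18.5d to P7d. With median-of-ratios scaling 1 regulator was higher and 3 were lower for P7d against E18.5d, and with columns scaled to an equal sum 1 and 1 for P7d against P1d. Without the 3 hearts with airway RNA the counts were 0 and 4, 1 and 2, and 1 and 1 in the order of the comparisons above.

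Of 23 other p53 targets, 8 rose and 2 fell from E18.5d to P7d, a median of 0.19, and 13 and 1 with median-of-ratios scaling. From E18.5d to P1d 10 rose and 4 fell (median -0.01), and with columns scaled to an equal sum 4 rose and 5 fell. From P1d to P7d 7 rose and 5 fell (median 0.06). Trp53inp1, which encodes a stress-induced p53 cofactor, rose by 1.40 to P1d and fell by 1.16 afterwards, and the antiproliferative gene Btg2 rose by 1.10 to P1d. Eda2r, a TNF receptor family gene, rose by 1.02 from P1d to P7d, and the iron reductase gene Steap3 rose by 0.79. Gtse1, a gene of G2 and S phase whose product restrains p53, fell by 1.53 from E18.5d to P1d. Cdkn1a, the cell-cycle inhibitor p21, was among those higher at both postnatal stages than at E18.5d. Without the 3 hearts with airway RNA 5 rose and 1 fell from E18.5d to P7d, 5 rose and 2 fell from E18.5d to P1d, and 4 rose and 3 fell from P1d to P7d.

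Of 14 genes of the BCL2 family and apoptosome, 5 rose and 4 fell from E18.5d to P1d. From P1d to P7d 2 rose and 7 fell. The share of all genes tested that fell from E18.5d to P7d was 36.9%, to be read beside the count for that comparison below. The BH3-only genes Bcl2l11, Bmf and Bik rose by 1.05, 0.91 and 0.79 to P1d, and Bmf and Bcl2l11 fell by 1.01 and 0.78 afterwards. The survival genes Bcl2l1 and Mcl1 were among those that rose to P1d and fell to P7d, while the survival gene Bcl2 and the apoptotic effector gene Bak1 fell to P1d and rose to P7d. From E18.5d to P7d none rose and 5 fell, among them Apaf1, a scaffold of the apoptosome, at -0.54, but 3 rose and 3 fell with median-of-ratios scaling, 3 fell with an equal sum and 2 fell without the 3 hearts with airway RNA.

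Of 12 genes of the sestrin and GATOR list, 6 rose and 2 fell from E18.5d to P1d (median 0.27), and 1 rose and 7 fell from P1d to P7d (median -0.33). With columns scaled to an equal sum these counts were 2 and 2, and 1 and 3, and without the 3 hearts with airway RNA 3 rose and 1 fell from E18.5d to P1d. Castor1, an arginine sensor of the same pathway, rose by 1.20 and fell by 0.92, and Ddit4, another mTORC1 inhibitor and stress gene, rose by 1.11 and fell by 1.06. Sesn3 was among the genes that rose and fell. Seh1l, a GATOR2 and nuclear pore subunit, was at -0.55 for P1d and at -0.57 for P7d against E18.5d. From E18.5d to P7d none of the list rose and 3 fell, 1 rose and 1 fell with median-of-ratios scaling, and 1 fell without the 3 hearts with airway RNA.

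Of the 9 Gadd45 partners, 1 was higher and 4 were lower at P1d than at E18.5d. The 3 cell-cycle partners changed most: Cdk1 fell by 1.90, Ccnb1 by 1.48 and Pcna by 1.42. From P1d to P7d 3 rose and none fell, with Cdk1 at 0.75, Pcna at 0.70 and the kinase gene Map3k4 at 0.34. From E18.5d to P7d 1 rose and 4 fell, led by Ccnb1 at -1.26, and 3 rose and 4 fell with median-of-ratios scaling. The fit without the 3 hearts with airway RNA had none that rose and 3 that fell from E18.5d to P1d.

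Of 12 FOXO factors and targets, 10 rose and none fell from E18.5d to P1d, a median of 0.76, and none rose and 8 fell from P1d to P7d, a median of -0.74. Pdk4, whose product inhibits pyruvate dehydrogenase, rose by 3.47. Txnip, an inhibitor of glucose uptake, rose by 2.63, and the insulin receptor substrate gene Irs2 by 2.01. Klf15 fell by 1.97 from P1d to P7d and Irs2 by 1.61. Pdk4 and Txnip were still higher at P7d than at E18.5d, by 3.37 and 1.58, where 5 of the 12 rose and 2 fell. Without the 3 hearts with airway RNA 5 rose and none fell from E18.5d to P1d, 2 rose and none fell from E18.5d to P7d, and 7 fell from P1d to P7d.

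Of 7 ATF4 genes, 1 rose and 3 fell to P1d. The phosphatase subunit gene Ppp1r15a, also called Gadd34, rose by 1.24, while the amino acid synthesis genes Psat1 and Asns fell by 1.03 and 0.88. From E18.5d to P7d 1 rose and 4 fell (2 and 4 with median-of-ratios scaling), and from P1d to P7d 1 rose and 3 fell (1 and 1 with an equal sum). When the 3 hearts with airway RNA were left out, 1 rose and 2 fell from E18.5d to P7d. Of 11 immediate early genes, 8 rose and none fell to P1d, with Atf3 at 1.49, Nr4a1 at 1.28 and Fos at 1.20, and 5 rose without the 3 hearts with airway RNA. From E18.5d to P7d 7 rose and 1, Myc, fell by 1.16, so most of them moved against Gadd45b and Gadd45g, and from P1d to P7d 2 rose and 4 fell. All 9 proliferation genes were lower at P1d and at P7d than at E18.5d, and 8 rose from P1d to P7d.

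**Figure D4:**
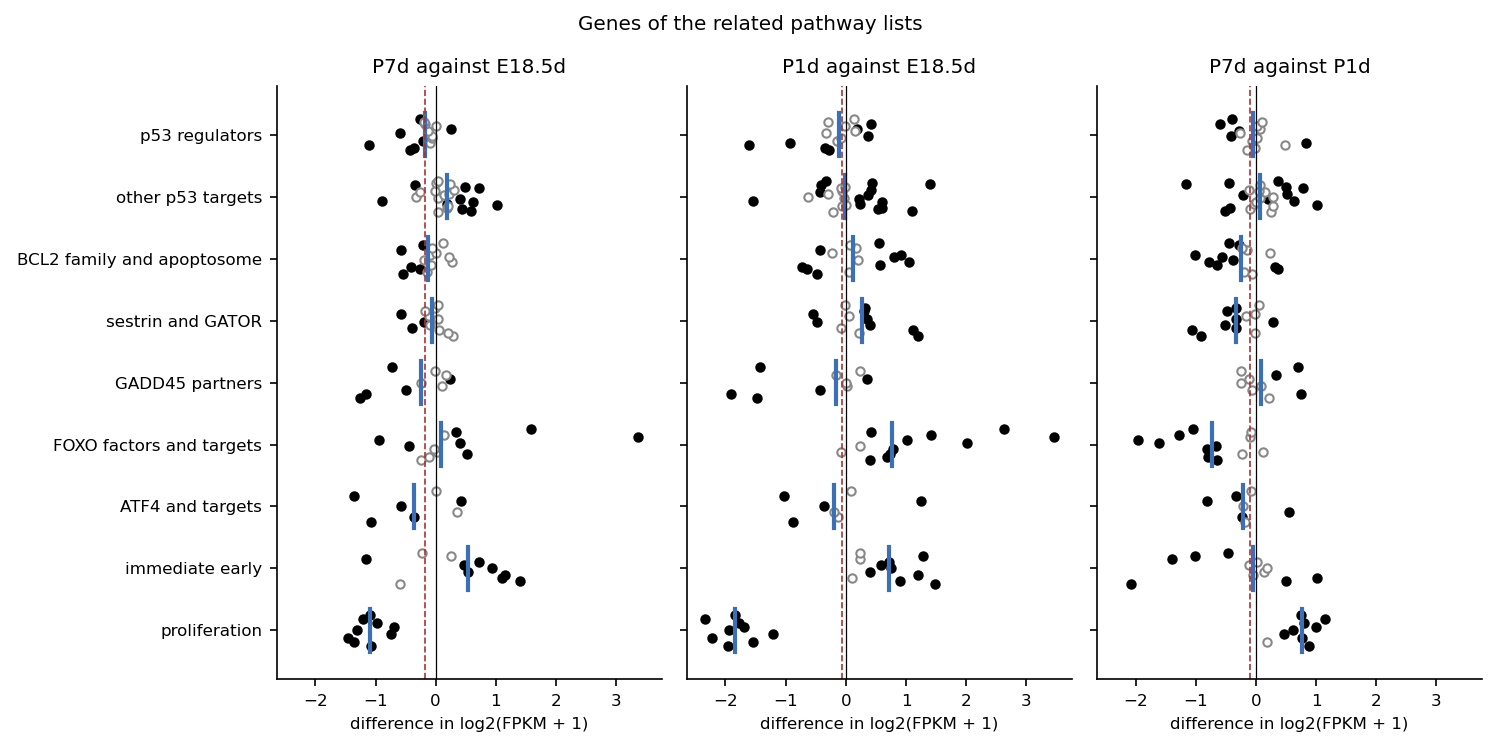
Difference in log2(FPKM + 1) (horizontal axis) of each gene in 9 related lists for the 3 comparisons, filled where the adjusted p was under 0.05, with a blue bar at the list's median and a dashed line at the median of all genes tested. The FOXO list has its median at 0.76 for P1d against E18.5d and at -0.74 for P7d against P1d, and the proliferation list at -1.84 and 0.76.

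The genes most like a member were found by the correlation of log2(FPKM + 1) over the 9 hearts, given as a description, since hearts of a stage share that stage. For Sesn1 these were Rnf114 (r = 0.99), Foxo3 (0.99), Tspyl1 (0.99), Selenbp1 (0.99) and Tmem50a (0.99). Foxo3 had 17.07, 17.36 and 18.05 FPKM at E18.5d, 31.62, 41.76 and 22.24 at P1d and 17.19, 16.81 and 17.22 at P7d. In all 6 genes the P1d hearts ranked heart 2, heart 1 and heart 3, an order on which the choice by correlation itself leaned, while Ccng1 was lowest in heart 2 and highest in heart 3. The neutrophil markers, of which 3 of 5 averaged 1 FPKM or more, summed to 41.1, 67.3 and 50.6 FPKM in P1d hearts 1, 2 and 3, to 5.65 to 10.9 at E18.5d and to 12.9 to 17.7 at P7d. Erythroid markers, all 5 averaging 1 FPKM or more, summed to 10933, 17113 and 8916 FPKM in the P1d hearts, in the order of Sesn1. In E18.5d hearts 1, 2 and 3 they summed to 7556, 5806 and 15463 FPKM, the reverse of the order of Sesn1 there. E18.5d heart 3 thus lay above P1d hearts 1 and 3 in erythroid markers and below them in Sesn1. At P7d they summed to 5716 to 7403 FPKM. Liver markers, of which 2 of 4 averaged 1 FPKM or more, summed to 1.28, 31.7 and 2.91 FPKM in P1d hearts 1, 2 and 3. They summed to 1.63 to 9.32 FPKM at E18.5d and to 0.73 to 1.15 at P7d. The part of these cells and of liver RNA in the Sesn1 values was not tested.

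**Figure D5:**
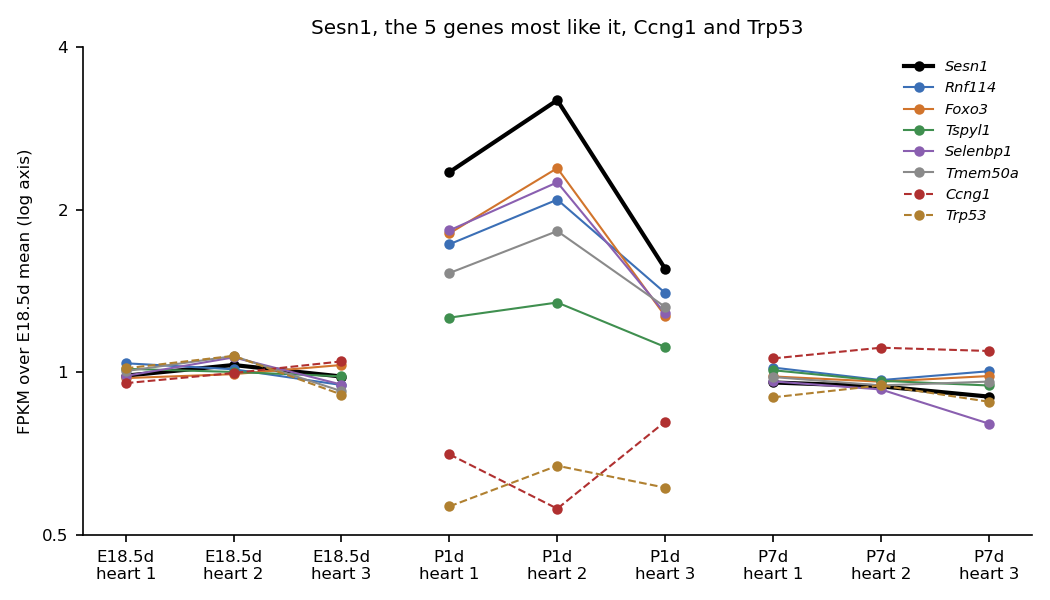
FPKM of each heart divided by the gene's mean at E18.5d (vertical log axis) for Sesn1, the 5 genes most correlated with it, Ccng1 and Trp53, with lines joining hearts of a stage for legibility only. Sesn1 and the 5 genes are highest in P1d heart 2 and lowest of the P1d hearts in heart 3, and Ccng1 has the opposite order.

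For Gadd45a the closest genes were Ubtd1 (r = 0.98), Rph3al (0.98), Palm (0.98), Phactr1 (0.98) and Gm43672 (0.97). The mean of Ubtd1 went from 8.09 through 12.4 to 13.9 FPKM over the stages. For Gadd45b they were Nsmce2 (r = 0.99), Snx6 (0.98), Pdgfc (0.98), Nnat (0.98) and Txndc17 (0.97), of which the growth factor gene Pdgfc went from 2.28 through 1.73 to 0.940 FPKM. For Gadd45g they were Zeb1 (r = 0.97), Cttnbp2nl (0.96), Acot13 (0.96), Pip4k2a (0.95) and Ubn1 (0.95), with Zeb1, a transcriptional repressor, going from 41.0 through 38.1 to 36.1 FPKM. No gene was shared by these 4 groups of 5.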

How the data were processed

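The authors deposited FPKM values of 48820 genes, rounded to 2 decimals, with a column per heart. Libraries had been made from total RNA with the NEBNext Ultra RNA kit. The submitters' processing notes name STAR and GRCm38/mm10; the counting tool, its strand setting and the annotation are not given in the sources used here. Hearts were grouped by the stage in their labels, and none was left out. Gene identifiers were matched without version to GENCODE M21, which holds 48144 of them.

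Values were transformed to log2(FPKM + 1). The 13618 genes that averaged 1 FPKM or more entered a linear model (limma 3.58.1 under R 4.3.3, eBayes with trend), with Benjamini-Hochberg adjustment over all of them, after the code was tested on simulated data. p-values measure the spread between these hearts. Within-heart ratios were compared with scipy 1.17.1. The table holds no counts. Depth was estimated from the spacing of low FPKM values, of which 90.4% to 93.8% came out whole within 0.2 of a fragment, against 37.1% to 40.2% with gene lengths permuted, so fragment numbers are approximate and cover counting error only.

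All 10 members are described. Of each related list, genes past the threshold were named, with values for the 3 largest changes per comparison at most. The members and lists were chosen with earlier results of these data known. In all, 20 other settings were tried, and a further 1, leaving out 3 hearts with over 10 FPKM of airway markers, was added after the values were seen. Promoter sequences are those of RefSeq (GRCm38.p6).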

Additional observations from a re-analysis of the deposited data

How the results depend on the processing

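Of 14 calls of members, 11 held under each of the 20 other settings that gave a value and in the fit without the 3 hearts with airway RNA. The exceptions were Gadd45g for P7d against E18.5d and, in the last fit alone, Ccng1 and Sesn1 for P1d against E18.5d. Gadd45g was at -0.32 with median-of-ratios scaling, -0.33 with columns scaled over protein-coding nuclear genes, -0.33 with quantile normalization, -0.55 without the airway hearts and between -0.64 and -0.38 when 1 heart was left out, with limma adjusted p from 0.00240 to 0.139 over all settings. The cause was not tested. Gadd45b passed for P1d against E18.5d with columns scaled to an equal sum (-0.48, limma adjusted p = 0.0390), Gadd45g for P7d against P1d without P7d heart 3 (-0.40, 0.0249), and Gadd45a against the midpoint with quantile normalization (0.37, 0.0446) and without P7d heart 1 (0.40, 0.0430). Replicate numbers did not pair the hearts: of 9 same-numbered pairs 1 had a correlation of deviations over 0.1. With a replicate block the counts of members called stayed at 3, 4, 4 and 3.

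Differences that passed in no fit changed sign in places. For P7d against E18.5d, scaling over protein-coding genes, median of ratios and quantile normalization gave 0.032, 0.045 and 0.015 for Trp53, 0.13, 0.14 and 0.12 for Mdm2, 0.067, 0.080 and 0.055 for Sesn1 and 0.018, 0.031 and 0.0061 for Bax, and an equal sum gave -0.022 for Sesn2. For P7d against P1d, Bax was at 0.040 with an equal sum and at 0.063, 0.022 and 0.030 with the other scalings, and Mdm2 at -0.0087 with the Xist covariate. For P1d against E18.5d, Bax was at 0.0089 with median of ratios and 0.016 with the Xist covariate, and Sesn2 at 0.052 with quantile normalization and 0.0035 without the airway hearts. Leaving out 1 heart gave ranges across 0 for Mdm2 (-0.12 to 0.056), Sesn2 (-0.054 to 0.081) and Bbc3 (-0.081 to 0.24) for P7d against E18.5d, for Sesn2 (-0.10 to 0.021) and Bax (-0.14 to 0.0013) for P1d against E18.5d and for Mdm2 (-0.022 to 0.15) and Sesn2 (-0.0024 to 0.11) for P7d against P1d. Of the counts over the related lists under other settings, 534 stayed within 1.5 times and 33 did not. These are totals of both directions, so a change of direction could go unseen. The BCL2 list for P7d against E18.5d, for instance, was within 1.5 times with 3 higher and 3 lower under median-of-ratios scaling, in place of 0 and 5. The fit without the airway hearts leaves 1 heart at E18.5d, which is assumed to vary like the others. A pseudocount of 0.1 raised the rise of Gadd45a over Gadd45b from E18.5d to P7d from 2.43 to 3.30.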
